A study of Mus musculus with 6 samples.

Results

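Mitochondrial biogenesis in osteoclast precursors is described here through 10 genes for its regulators: the transcription factor genes Myc and Max, the orphan nuclear receptor gene Esrra, the coactivator genes Ppargc1b, Ppargc1a and Pprc1, the nuclear respiratory factor genes Nrf1 and Gabpa, and Tfam and Tfb2m, whose proteins act on mitochondrial DNA. They were chosen by gene symbol, with earlier results of these data known, from the 24940 genes of the deposited table. All 10 were found in it. Of these, 9 passed a filter on low values, a mean of at least 0.5 RPKM (reads per kilobase of transcript per 1000000 mapped reads) over the 6 libraries, which 11595 genes passed in all. Ppargc1a did not pass it.

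RNA was taken from primary mouse bone marrow-derived macrophages (BMMs), the precursors of osteoclasts, after 3 days in one of 3 conditions with 2 libraries each. All 3 conditions contained the survival factor M-CSF at 30 ng/mL. The -R condition had M-CSF alone, the +R condition added 100 ng/mL of RANKL, the cytokine that drives osteoclast formation, and the R+LE condition added RANKL together with LE, a methanol leaf extract of the shrub Abeliophyllum distichum, at 10 µg/mL. The sample labels give C57BL/6 mice of 6 to 8 weeks and 48-well plates, whereas the methods of the study give male ICR mice and larger wells, so the strain is uncertain. No knockout, transgene or other allele is named in either source. Neither source says whether the libraries of a condition came from separate cultures or animals, so the p-values given here measure only the spread between these libraries, which may be technical.

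The libraries held between 29390199 and 34846387 mapped reads, so depth differed little between conditions. All 5 macrophage markers were present, and their summed level was 1587 and 1662 RPKM in -R, 1004 and 872 RPKM in +R, and 1010 and 829.9 RPKM in R+LE. Single markers differed in direction, since with LE Cd14 was higher than in +R (log2 difference 0.62, limma adjusted p = 0.0252) and Cd68 had a difference of -0.41 (limma adjusted p = 0.193). In R+LE, Itgam was higher than in -R (0.56, limma adjusted p = 0.0114) while 3 of the 5 were lower. The summed level of 5 osteoclast markers was 40.04 and 41.1 RPKM in -R, 1888 and 1667 RPKM in +R, and 329.8 and 290.4 RPKM in R+LE. The 5 neutrophil and progenitor markers summed to 15.2 to 16.9 RPKM in -R, 0.66 to 0.816 RPKM in +R and 0.509 to 2.53 RPKM in R+LE. The 5 stromal and endothelial markers summed to 15.0 to 16.7, 10.4 to 14.5 and 7.64 to 8.62 RPKM in the same order. The 5 T and B cell markers never summed to more than 1.07 RPKM, with Cd3e at 0, and the 4 erythroid markers were listed at 0 throughout. The ribosomal RNA precursor Rn45s took 4.97% to 6.83% of genic reads in -R, 10.9% to 11.1% in +R and 11.2% to 13.5% in R+LE. All 5 osteoclast markers moved in the same direction as Ppargc1b in each comparison, and the part of cell makeup in the results was not tested.

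As background, MYC binds DNA as a pair with MAX and drives genes for growth, ribosome production and metabolism. ERRα, the product of Esrra, binds the control regions of many genes of the tricarboxylic acid cycle and respiratory chain, but has no known natural hormone and depends on coactivators of the PGC-1 family for its activity. PGC-1β, the product of Ppargc1b, is known in osteoclasts as the family member that raises mitochondrial content when the cells form under RANKL, which resorption of bone requires. NRF1 and GABP switch on nuclear genes for respiration and the genes for the factors, TFAM and TFB2M among them, that copy and transcribe the mitochondrial genome.

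The reference promoters of these genes were searched for short motifs that some of the regulators are known to bind. RefSeq windows of 300 bases, from 250 bases before to 50 bases after the transcription start (GRCm38.p6, the patched form of mm10), matched 8 of the 10 genes, and Nrf1 had a pair of windows. Myc and Ppargc1b had no entry. The motifs searched on both strands were the E-box CACGTG, which MYC and MAX bind, the ERR half-site AAGGTCA, the NRF1 core GCATGCG and the GABP motif CCGGAAG. Each of the 5 windows that held a match is shown from 100 bases before to 30 bases after the start, 5′ to 3′ on the strand of the gene, with the matched letters in capitals. The choice of windows shown rested on the matches alone and not on any change of the genes with RANKL.
Max (chr12:76962219-76962348, minus strand): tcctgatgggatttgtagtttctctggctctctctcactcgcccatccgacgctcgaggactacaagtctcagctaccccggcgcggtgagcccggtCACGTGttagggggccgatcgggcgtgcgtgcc
Esrra (chr19:6921779-6921908, minus strand): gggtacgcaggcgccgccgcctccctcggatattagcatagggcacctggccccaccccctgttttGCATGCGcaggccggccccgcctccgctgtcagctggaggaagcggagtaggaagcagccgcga
Gabpa (chr16:84835024-84835153, plus strand): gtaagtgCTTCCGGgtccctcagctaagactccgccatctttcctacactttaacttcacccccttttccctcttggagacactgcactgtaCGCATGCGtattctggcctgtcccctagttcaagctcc
Tfam (chr10:71238015-71238144, minus strand): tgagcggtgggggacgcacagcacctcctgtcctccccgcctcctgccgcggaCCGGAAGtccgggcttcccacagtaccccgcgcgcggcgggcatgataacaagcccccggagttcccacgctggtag
Tfb2m (chr1:179546247-179546376, minus strand): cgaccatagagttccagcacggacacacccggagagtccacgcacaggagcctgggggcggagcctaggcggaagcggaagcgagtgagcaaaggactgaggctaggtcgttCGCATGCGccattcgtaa

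In Max the E-box ran from base -3 to base 3 around the start. The NRF1 core stood at -34 to -28 in Esrra, at -8 to -1 in Gabpa and at 13 to 20 in Tfb2m, and in the last pair of genes it was read on both strands in overlapping positions. The GABP motif lay at -47 to -41 in Tfam and, on the opposite strand, at -93 to -87 in Gabpa. None of these letters were found in the windows of Ppargc1a, Pprc1 or Nrf1, and the ERR half-site was in none of the 9 windows. Among all 32851 RefSeq mouse windows of this length, 7.15% held the E-box, 4.72% the ERR half-site, 3.58% the NRF1 core and 8.86% the GABP motif. A match describes letters in a window and not a bound site.

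**Figure D1:**
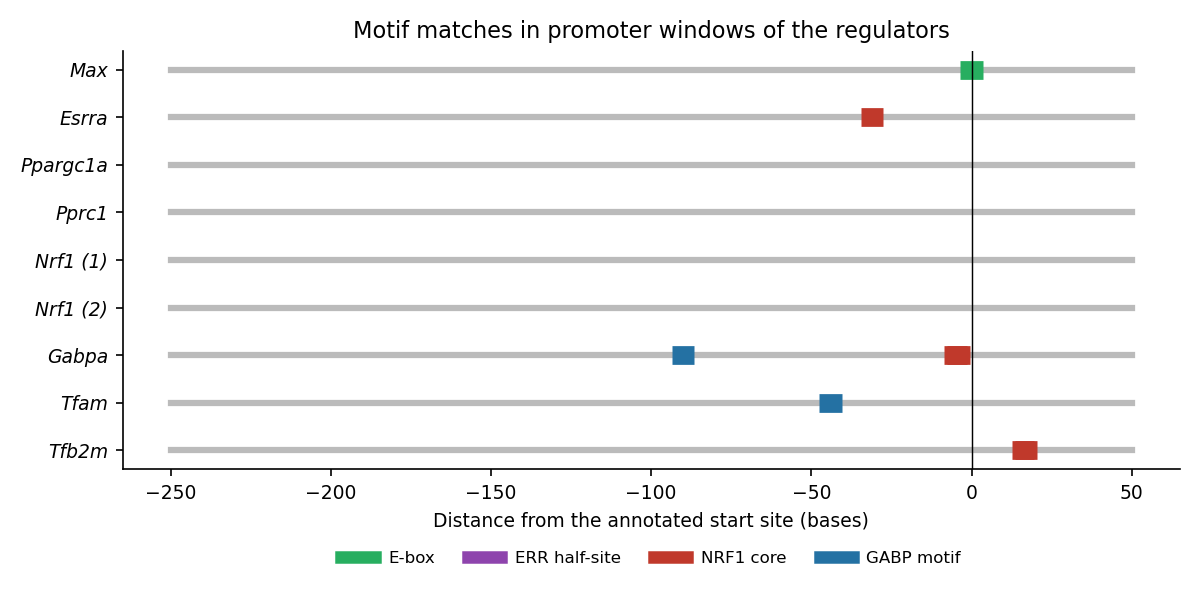
Position of motif matches in the reference promoter windows of the regulators, in bases from the transcription start on the horizontal axis, with 1 row for each window. Marks stand for the E-box, the NRF1 core and the GABP motif, which fell in the windows of Max, Esrra, Gabpa, Tfam and Tfb2m, and the other windows held none.

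Among the PGC-1 coactivators, Ppargc1b changed most. In -R it measured 0.719 and 0.922 RPKM, from 77 and 117 reads. In +R it measured 9.29 and 11.3 RPKM, from 1039 and 1264 reads. In R+LE it measured 2.305 and 3.35 RPKM, from 265 and 372 reads. No library of one condition overlapped with a library of another, and R+LE lay between -R and +R. Its -R mean was 0.821 ± 0.144 RPKM, its +R mean 10.3 ± 1.42 RPKM and its R+LE mean 2.83 ± 0.742 RPKM (SD, n = 2 each).

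The mean of Ppargc1b was 12.6-fold higher in +R than in -R. On the scale of log2(RPKM + 0.5), which understates the change of low genes, the difference was 3.03 (SE 0.18, limma, Benjamini-Hochberg adjusted p = 2.99e-09). With LE the mean was 0.275 times that of +R, a log2 difference of -1.71 (SE 0.18, limma adjusted p = 1.49e-05). It stayed 3.45-fold above -R, with a log2 difference of 1.32 (limma adjusted p = 4.04e-05). In bulk RNA, fewer cells that express a gene and less RNA of it per cell cannot be told apart. Leaving out 1 library at a time kept the log2 difference between R+LE and +R within -1.94 to -1.48.

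Pprc1 encodes PRC, the PGC-1-related coactivator known as a partner of NRF1 in growing cells. The gene (chr19:46056539-46072909, plus strand) measured 10.2 and 11.3 RPKM in -R, 8.60 and 9.32 RPKM in +R, and 8.495 and 11.4 RPKM in R+LE. Both +R libraries lay below both -R libraries, while the R+LE libraries spanned the range of the other conditions. The log2 difference was -0.25 between +R and -R (95% interval -0.58 to 0.08, limma adjusted p = 0.196) and 0.13 between R+LE and +R (interval -0.20 to 0.46, limma adjusted p = 0.701), neither past the threshold.

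Ppargc1a, which encodes PGC-1α, the family member best known from muscle, brown fat and liver, was at the edge of detection. The 1 transcript counted for it is a non-coding RefSeq form of 6391 nucleotides (chr5:51454249-51567725, minus strand). The annotated gene runs on to 52115853, so reads on that further part were not counted. The counted form caught 3 and 0 reads without RANKL, 1 in each +R library, and 1 and 4 with LE. Levels at or near the limit of 3 reads give no fold change, and the gene was not tested.

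Per length, the make-up of the coactivator family therefore differed between conditions. The 3 genes summed to 10.96 and 12.3 RPKM in -R, 17.9 and 20.6 RPKM in +R, and 10.8 and 14.8 RPKM in R+LE. Ppargc1b made up 6.56% and 7.52% of that sum in the -R libraries, 51.9% and 54.8% with RANKL, and 21.3% and 22.7% with RANKL and LE, with Pprc1 making up nearly all the rest. The sum in R+LE overlapped with that in -R, whereas the share of Ppargc1b did not overlap between any of the conditions.

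**Figure D2:**
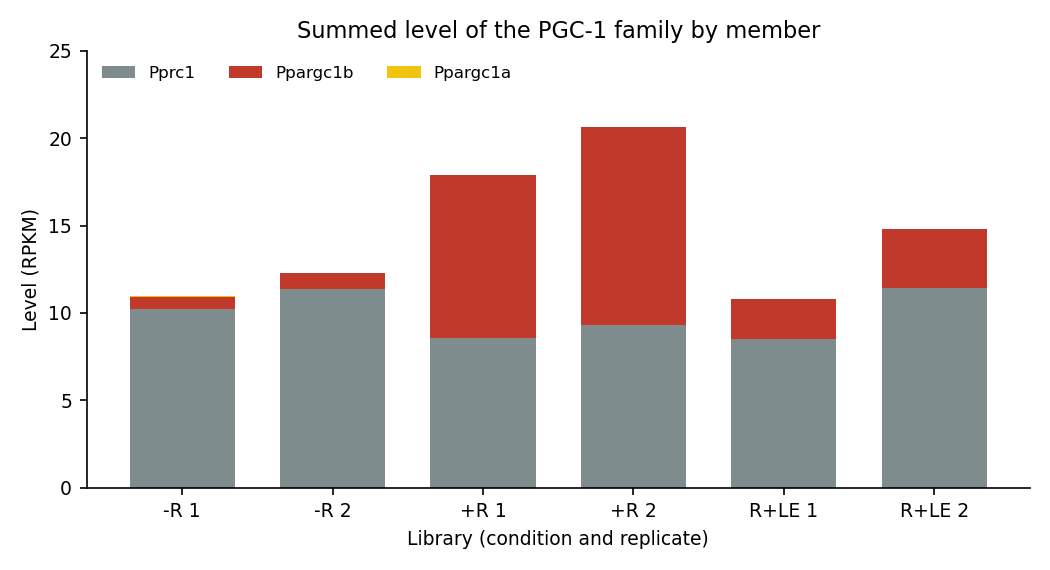
Level of the PGC-1 coactivator genes in each of the 6 libraries, in RPKM on a linear axis from 0, stacked by gene. Ppargc1b makes up under 8% of the family in -R, over 51% in +R and 21.3% to 22.7% in R+LE, while Ppargc1a is too low to form a visible layer.

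Esrra, the gene of a nuclear receptor through which PGC-1 coactivators act, changed less than the coactivator gene Ppargc1b. Esrra (chr19:6910977-6921808, minus strand) measured 16.5 and 16.7 RPKM in -R, 21.7 and 21.2 RPKM in +R, and 15.3 and 16.8 RPKM in R+LE. Both +R libraries stood above the other 4, and R+LE overlapped with -R. The mean rose 1.29-fold from -R to +R, a log2 difference of 0.36 (SE 0.13, limma adjusted p = 0.0395). That call did not hold when any one of the 4 compared libraries was left out (limma adjusted p = 0.123 to 0.189).

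With LE, Esrra differed from +R by -0.41 on the log2 scale (95% interval -0.69 to -0.12, limma adjusted p = 0.063), which did not pass the threshold. The mean was 0.749 times that of +R. R+LE differed from -R by -0.05 (interval -0.33 to 0.24, limma adjusted p = 0.817). In the reference annotation, 73 bases of Esrra exons lie over Trmt112 on the opposite strand, and since reads were counted on either strand, those of the overlap cannot be assigned. The paralogues stayed at the floor, with 0 reads of Esrrb in every library and at most 1 read of Esrrg.

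The level of Ppargc1b per unit of Esrra was 0.0436 and 0.0552 in the -R libraries, as a ratio of RPKM. It was 0.429 and 0.534 with RANKL, and 0.151 and 0.200 with RANKL and LE. These ratios separated all 3 conditions, with the R+LE ratio between the others. The receptor gene stayed above its coactivator gene in every library.

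Myc rose with RANKL and remained up in the presence of LE. Myc (chr15:61985341-61990361, plus strand, in mm10 as all positions here) measured 24.6 and 26.3 RPKM in -R, 48.6 and 46.3 RPKM in +R, and 42.8 and 45.0 RPKM in R+LE. The -R libraries lay far below the other 4, and both R+LE libraries lay slightly below both +R libraries. The mean was 1.87-fold higher in +R than in -R, a log2 difference of 0.89 (SE 0.14, limma adjusted p = 8.08e-05), and 1.73-fold higher in R+LE than in -R, a log2 difference of 0.78 (limma adjusted p = 0.000398). Between R+LE and +R the log2 difference was -0.11 (95% interval -0.40 to 0.18, limma adjusted p = 0.723). The interval leaves room for a fall to about the same size as that of Esrra, so equal levels are not shown.

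Max, the gene of the obligate partner of MYC (chr12:76937269-76962248, minus strand), measured 29.3 and 31.3 RPKM in -R, 33.7 and 32.1 RPKM in +R, and 35.3 and 29.8 RPKM in R+LE. The libraries of +R stood just above those of -R, and R+LE overlapped with both. Its log2 difference was 0.12 between +R and -R (interval -0.19 to 0.42, limma adjusted p = 0.527) and -0.02 between R+LE and +R (interval -0.32 to 0.28, limma adjusted p = 0.964). The ratio of Myc to Max was 0.838 and 0.841 in -R, 1.44 in both +R libraries, and 1.21 and 1.51 in R+LE, so the Myc level lay below that of Max without RANKL and above it in the 4 libraries with RANKL.

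Nrf1 (chr6:30047988-30145197, plus strand) measured 7.15 and 6.90 RPKM in -R, 7.86 and 6.57 RPKM in +R, and 7.52 and 5.88 RPKM in R+LE. All 3 conditions overlapped. The log2 difference was 0.03 between +R and -R (95% interval -0.30 to 0.36, limma adjusted p = 0.887) and -0.10 between R+LE and +R (interval -0.43 to 0.22, limma adjusted p = 0.774).

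Gabpa, which encodes the DNA-binding subunit of GABP (chr16:84835124-84863778, plus strand), measured 8.84 and 9.525 RPKM in -R, 13.9 and 13.6 RPKM in +R, and 13.5 and 10.7 RPKM in R+LE. The libraries of +R and R+LE all lay above those of -R. Its mean rose 1.49-fold with RANKL, a log2 difference of 0.55 (SE 0.15, limma adjusted p = 0.00572), a call that was lost without -R replicate 1 (limma adjusted p = 0.0648). R+LE differed from +R by -0.18 (95% interval -0.49 to 0.13, limma adjusted p = 0.523) and from -R by 0.37 (interval 0.06 to 0.68, limma adjusted p = 0.062). The latter was 0.21 without R+LE replicate 1 and 0.53 without R+LE replicate 2 (limma adjusted p = 0.333 and 0.0134), and the difference from +R was -0.35 and -0.02. In the reference annotation, 182 bases of Gabpa exons lie over Atp5j, which encodes a subunit of ATP synthase, on the opposite strand, so the reads of that overlap cannot be assigned.

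The factors that act on mitochondrial DNA both rose with RANKL. Tfam encodes the protein that packages the mitochondrial genome and opens its transcription. The gene (chr10:71225477-71238044, minus strand) measured 4.61 and 5.18 RPKM in -R, 8.275 and 6.74 RPKM in +R, and 6.66 and 5.47 RPKM in R+LE. The 3 conditions did not overlap, though the highest R+LE library came close to the lower +R library. The mean was 1.53-fold higher in +R than in -R, a log2 difference of 0.56 (SE 0.15, limma adjusted p = 0.00743). The call was lost without -R replicate 1 (limma adjusted p = 0.0802) or without +R replicate 1 (limma adjusted p = 0.0951). R+LE differed from +R by -0.29 (95% interval -0.61 to 0.04, limma adjusted p = 0.294) and from -R by 0.28 (interval -0.05 to 0.61, limma adjusted p = 0.182), so R+LE was not told apart from either.

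Tfb2m encodes the factor that lets the mitochondrial RNA polymerase melt a promoter. The gene (chr1:179528054-179546276, minus strand) measured 7.04 and 7.42 RPKM in -R, 11.1 and 10.7 RPKM in +R, and 11.02 and 9.43 RPKM in R+LE. All 4 libraries with RANKL lay above both -R libraries. The mean was 1.51-fold higher in +R than in -R, a log2 difference of 0.56 (SE 0.14, limma adjusted p = 0.00369), and 1.41-fold higher in R+LE than in -R, a log2 difference of 0.47 (limma adjusted p = 0.016). The latter call was lost without -R replicate 1, -R replicate 2 or R+LE replicate 1 (limma adjusted p = 0.107, 0.0623 and 0.0932). R+LE differed from +R by -0.09 (95% interval -0.39 to 0.20, limma adjusted p = 0.778).

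**Figure D3:**
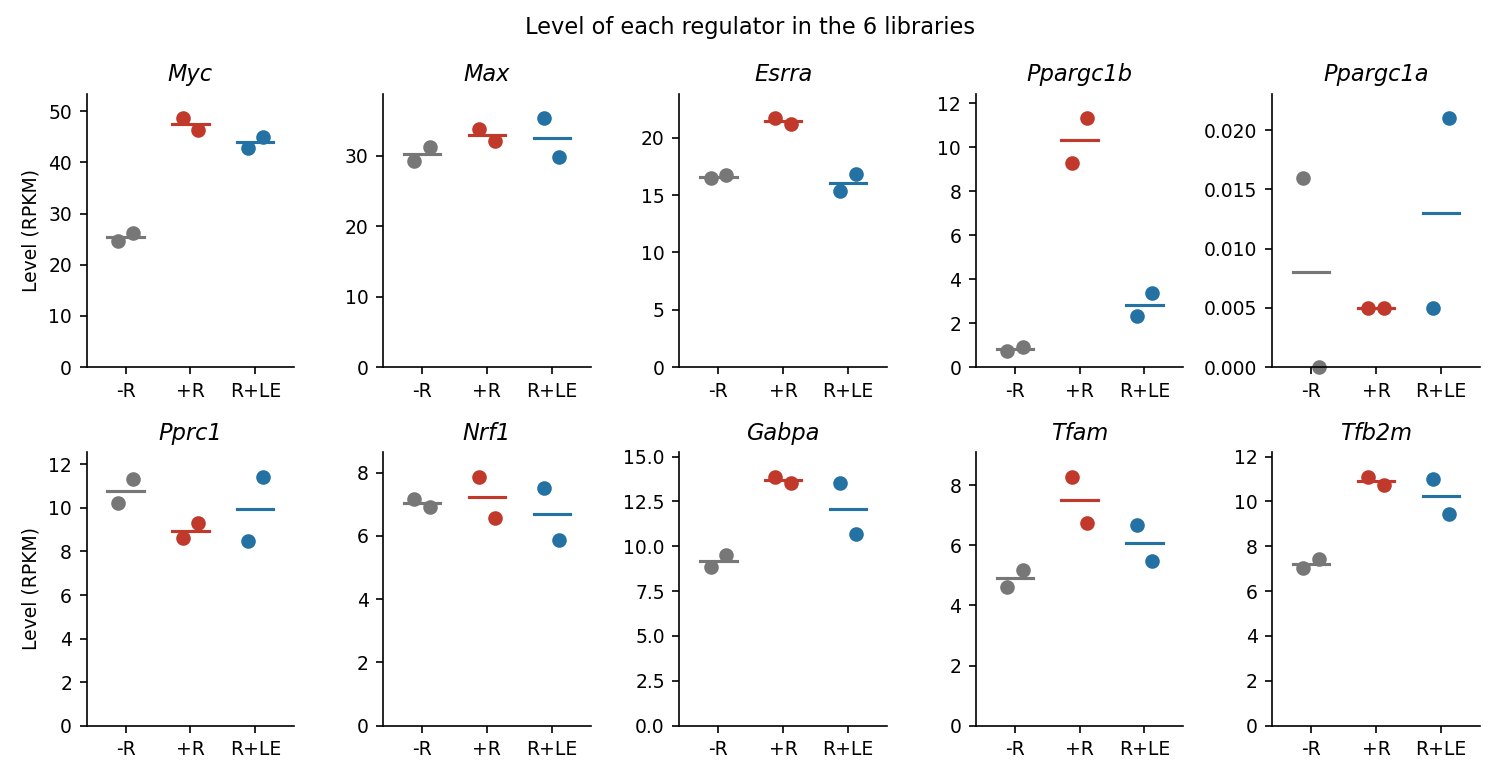
Level of each regulator gene in every library, in RPKM, with 1 panel for each gene and points for the 2 libraries of -R, +R and R+LE and a line at their mean. Between the means of -R and +R, Ppargc1b has the largest fold difference, 12.6-fold, and it runs from 0.719 to 11.3 RPKM. Myc spans more RPKM, from 24.6 to 48.6, whereas Nrf1 and Max stay within 5.88 to 7.86 and 29.3 to 35.3 RPKM.

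Counted together, 6 of the 9 tested regulators rose with RANKL at an adjusted p below 0.05, namely Ppargc1b, Myc, Tfb2m, Gabpa, Tfam and Esrra. Over all tested genes, 23.9% rose by the same rule. The count was 3 when -R replicate 1 was left out. No regulator fell by limma, at an adjusted or an unadjusted p below 0.05, nor with the voom weighting of recovered reads, against 21.5% of all tested genes that fell. Of the 6, only Ppargc1b also differed by at least 2-fold, as did 6.58% of all tested genes in the higher direction. In level, 7 of the 9 were higher in both +R libraries than in both -R libraries, against 40.3% of all tested genes, and 1, Pprc1, was lower in both, against 35%.

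With LE, 1 of the 9 fell relative to +R, Ppargc1b, against 6.86% of all tested genes, and by 2-fold or more, against 1.78%. None rose, adjusted or unadjusted, nor with voom, against 5.19% of all tested genes. The libraries of R+LE lay wholly below those of +R for Myc, Esrra, Ppargc1b, Gabpa and Tfam, or 5 of 9, against 29.5% of all tested genes, and no regulator lay wholly above, against 19.5%. Compared with -R, 3 of the 9 were higher in R+LE, namely Ppargc1b, Myc and Tfb2m, against 15.3% of all tested genes, and Ppargc1b alone by 2-fold, against 3.92%. None was lower by limma, adjusted or unadjusted, or by voom, against 19% of all tested genes. The R+LE libraries lay wholly above those of -R for 5 of the 9 (31.2% of all tested genes) and wholly below for none (34.3%). The comparisons share the +R and -R libraries and are not independent of each other. The median log2 difference over all tested genes was 0.05 for +R against -R. It was -0.05 for R+LE against +R and -0.01 for R+LE against -R.

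**Figure D4:**
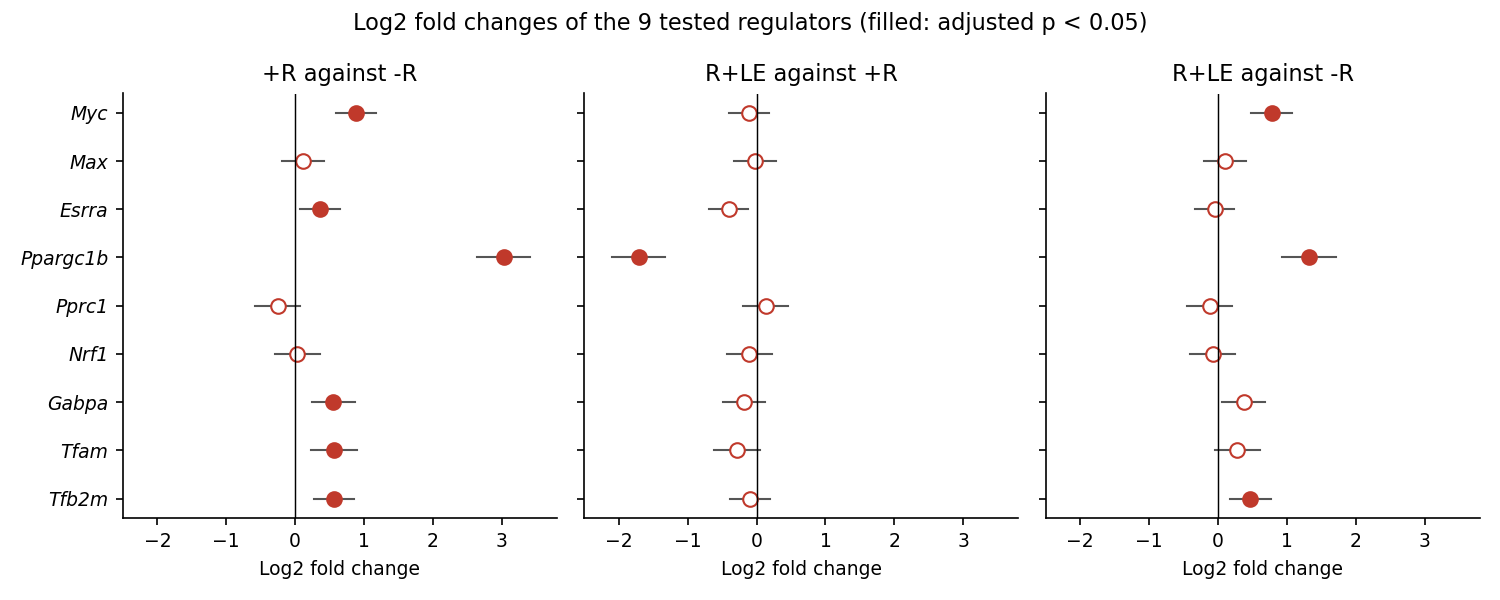
Log2 difference of each tested regulator, on the scale of log2(RPKM + 0.5), with its 95% interval from limma and filled where the adjusted p was below 0.05, for RANKL (+R and -R), for LE (R+LE and +R) and for both together (R+LE and -R). Ppargc1b lies farthest from 0, at 3.03 with RANKL and -1.71 with LE, while those of Myc run from 0.60 to 1.18 and from -0.40 to 0.18.

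Ordered by level per length, the regulators of -R ran from Max (30.3 RPKM on average) through Myc (25.4 RPKM), Esrra (16.6 RPKM), Pprc1 (10.8 RPKM), Gabpa (9.18 RPKM), Tfb2m (7.23 RPKM), Nrf1 (7.03 RPKM) and Tfam (4.90 RPKM) to Ppargc1b and Ppargc1a. Only the neighbours Tfb2m and Nrf1 overlapped in their libraries. In +R, Myc (47.5 RPKM) stood above Max (32.9 RPKM), and Ppargc1b moved from the ninth place to the sixth, level with Tfb2m above it and Pprc1 below it, whose libraries overlapped with its own. Tfam and Nrf1 overlapped as well. In R+LE, Ppargc1b was again in the ninth place, below Tfam and without overlap, whereas Myc kept the first place. Gabpa, Tfb2m and Pprc1 were not told apart there, nor were Nrf1 and Tfam.

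The other genes of these pathways were taken from lists of known partners and targets, chosen with earlier results of these data known. The list of the MYC network held 11 genes, those of the MYC paralogues, of repressors that pair with MAX, and of MLX and its partners, and 9 of them were tested. With RANKL 5 rose, against 23.9% of all tested genes, with a median log2 difference of 0.41 over the 9, against a median of 0.05 over all tested genes. The count was 1 without -R replicate 1, and 3 without any one of the other 3 compared libraries. The rise was greatest for Mycl, the L-MYC paralogue. It measured 0.041 and 0.157 RPKM in -R, 12.8 and 9.51 RPKM in +R, and 11.6 and 10.7 RPKM in R+LE. With 4 and 18 reads in -R, Mycl passed the filter on low values only through the libraries with RANKL, where it was high. Its place among the 5 that rose therefore rests partly on that filter, and the 0.5 added before the logarithm understates its rise. Its log2 difference between +R and -R was 4.28 (limma adjusted p = 3.88e-11), and that between R+LE and +R was 0.01 (limma adjusted p = 0.984). Mycn had at most 2 reads in any library. The repressor gene Mxd1 (log2 difference 0.70, limma adjusted p = 0.00975) and Mlxip, a nutrient-sensing relative (0.48, limma adjusted p = 0.0229), also rose with RANKL. With LE, no gene of the list changed by limma or voom, 1 was lower at an unadjusted p below 0.05, and the median was -0.16. Compared with -R, R+LE had higher Mycl and lower Mnt, a repressor gene (-0.46, limma adjusted p = 0.0173). Of all tested genes, 15.3% were higher and 19% lower in that comparison.

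Of 19 growth genes known as MYC targets, all were tested, and 12 rose with RANKL while none fell, against 23.9% and 21.5% of all tested genes, with a median log2 difference of 0.51. By voom 13 rose and none fell, and at an unadjusted p below 0.05 14 rose and none fell. Srm, which encodes spermidine synthase, rose from 29.5 ± 2.36 to 66.1 ± 3.31 RPKM (SD, n = 2 each), a log2 difference of 1.15 (limma adjusted p = 1.34e-05). Npm1, which encodes the nucleolar protein nucleophosmin and has processed pseudogenes that can share its reads, differed by 1.33 (limma adjusted p = 2.53e-05). Nolc1, another nucleolar protein gene, differed by 0.93 (limma adjusted p = 9.73e-05). With LE none of the 19 changed relative to +R, by limma at an adjusted or unadjusted p below 0.05 or by voom, and the median was -0.11. Compared with -R, 9 were higher in R+LE and none lower, against 15.3% and 19% of all tested genes, with a median of 0.44 and with Srm (0.89, limma adjusted p = 0.000241), Polr1b, a subunit gene of RNA polymerase I (0.82, limma adjusted p = 0.000306), and Npm1 (0.98, limma adjusted p = 0.000636) in front. That count was 15 without R+LE replicate 2, 14 with the libraries centred on their medians, and 15 with quantile normalization or with Rn45s left out of the depth.

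Of 15 listed partners of ERRα and the PGC-1 coactivators 12 were tested. With RANKL 2 rose and 2 fell, shares below those of all tested genes (23.9% and 21.5%), with a median log2 difference of 0.03. Prmt1, an arginine methyltransferase known to modify PGC-1α, rose by 1.24 on the log2 scale (limma adjusted p = 5.48e-06), from 30.4 ± 0.663 to 72.7 ± 1.68 RPKM (SD, n = 2 each). Creb1, an activator of PGC-1 genes, rose by 0.65 (limma adjusted p = 0.00415). Among those that fell was the acetyltransferase gene Kat2a, lower by a log2 difference of -0.36 (limma adjusted p = 0.0401), named after its value was seen. Without -R replicate 1, 1 gene rose and 1 fell. With LE none changed by limma or voom, and 1 was lower at an unadjusted p below 0.05. In R+LE against -R, 2 were higher and 1 lower, against 15.3% and 19% of all tested genes. The share that was higher was near that of all tested genes, and the share that was lower was below it. The higher ones were Prmt1 (0.86, limma adjusted p = 0.000313) and Creb1 (0.51, limma adjusted p = 0.0234).

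Energy metabolism genes known as targets of ERRα and PGC-1 were mostly higher with RANKL and lower with LE. Of 17 listed genes 15 were tested. With RANKL 13 rose and none fell, adjusted or by voom, against 23.9% and 21.5% of all tested genes, at a median log2 difference of 0.85, and at an unadjusted p below 0.05 14 rose and none fell. With LE 9 of the 15 fell by limma at an adjusted p below 0.05, against 6.86% of all tested genes, at a median of -0.66. The number lower was 14 at an unadjusted p below 0.05 and 12 by voom, and none rose by any of these. Idh3a, a subunit gene of isocitrate dehydrogenase, measured 21.6 and 22.8 RPKM in -R, 67.1 and 62.8 RPKM in +R, and 43.6 and 32.2 RPKM in R+LE. It rose by 1.53 with RANKL (limma adjusted p = 1.35e-06) and fell by 0.78 with LE (limma adjusted p = 0.0036). Uqcrc2, of respiratory complex III, rose by 1.20 with RANKL (limma adjusted p = 1.93e-05). Sdhb, of succinate dehydrogenase, measured 85.5 and 81.2 RPKM in -R, 146.3 and 156.1 RPKM in +R, and 94.6 and 71.4 RPKM in R+LE, and fell by 0.88 with LE (limma adjusted p = 0.00212).

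The LE count of these energy genes depended on the libraries and the filter. It was 5 without -R replicate 1, -R replicate 2 or +R replicate 1, 14 without R+LE replicate 1, and 1 when genes of low level were not filtered out, while the median stayed between -0.82 and -0.40. Against -R, 4 were higher in R+LE and none lower, against 15.3% and 19% of all tested genes, with a median of 0.22, and Idh3a (0.74), Ndufb5, of respiratory complex I (0.56), and Cs, citrate synthase (0.45), in front. That count was 1 without -R replicate 1, -R replicate 2 or R+LE replicate 1, 8 without R+LE replicate 2, and 10 with Rn45s left out of the depth. Whether the LE difference of these genes differs from that of the MYC growth genes was not tested.

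Of 18 genes for transcription and replication of mitochondrial DNA, all tested, 5 rose and 2 fell with RANKL, with a median log2 difference of 0.32. The share that rose was near the 23.9% of all tested genes, and the share that fell was below their 21.5%. Ssbp1, which encodes the single-strand binding protein of mitochondrial replication, measured 11.1 and 10.9 RPKM in -R, 17.8 and 18.3 RPKM in +R, and 14.1 and 11.98 RPKM in R+LE. It rose by 0.69 with RANKL (limma adjusted p = 0.000789) and fell by 0.45 with LE (limma adjusted p = 0.0443), the only gene of the list that changed with LE. The LE call was lost under several alternatives, among them leaving out either -R library, either +R library or R+LE replicate 2. The protease gene Lonp1 (0.63, limma adjusted p = 0.00173) and Tfb1m, the paralogue of Tfb2m (0.56, limma adjusted p = 0.0077), also rose with RANKL. The 2 that fell were Tk2 and Polg2 (log2 differences -0.55 and -0.52, limma adjusted p = 0.0139 and 0.0302), a nucleoside kinase gene and the accessory subunit gene of the mitochondrial DNA polymerase, the latter named after its value was seen. Without -R replicate 1, 2 rose and 2 fell, without -R replicate 2, 4 rose and none fell, and without +R replicate 1, 2 rose and none fell. In R+LE against -R, Mterf2 was higher (0.97, limma adjusted p = 0.0124, at mean levels under 1 RPKM) and Tk2 lower (-0.58, limma adjusted p = 0.014). Mterf2 measured 0.044 and 0.404 RPKM in -R, from 2 and 22 reads, 0.459 and 0.417 RPKM in +R, and 1.075 and 0.694 RPKM in R+LE. It passed the filter on low values only through the R+LE libraries, where it was high. Its call therefore rests partly on that filter, and 1 -R library lay below the limit of 3 reads. The 9 mitochondrially encoded genes that were looked for are not listed in the table and were not analysed here.

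All 4 listed partner genes of GABP and NRF1 were tested. With RANKL 1 of the 4 rose and 1 fell, shares near the 23.9% and 21.5% of all tested genes. Gabpb2, a transactivating subunit gene of GABP, rose by 0.50 (limma adjusted p = 0.00761). The host cell factor gene Hcfc2 fell by 0.40 (limma adjusted p = 0.0265). Neither call held without -R replicate 1 or without +R replicate 1, and 1 gene, a higher one, passed without each of the other compared libraries. With LE none of the 4 changed, by limma adjusted or unadjusted or by voom. Compared with -R, Gabpb2 was higher in R+LE by 0.50 (limma adjusted p = 0.0105), a call lost without -R replicate 1. No other partner gene passed in that comparison, where 15.3% of all tested genes were higher and 19% lower.

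**Figure D5:**
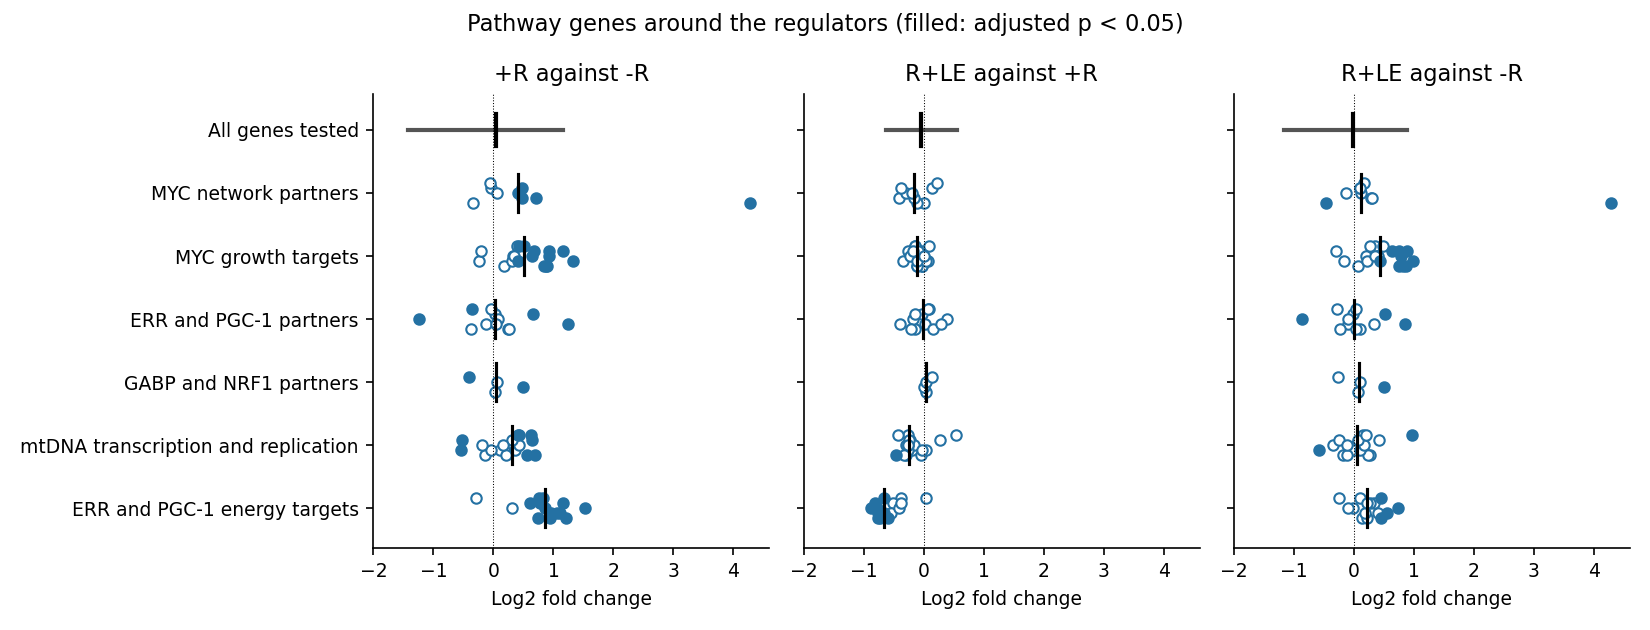
Log2 differences of the tested genes of each pathway list, on the scale of log2(RPKM + 0.5), for the 3 comparisons, with a point for each gene, filled where its adjusted p was below 0.05, a vertical line at the list's median, and a bar in the top row from the percentile 5 to the percentile 95 of all tested genes. The energy genes lie at a median of 0.85 with RANKL and -0.66 with LE, and the MYC growth genes at 0.51 and -0.11.

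Genes whose pattern was most like that of Ppargc1b or Myc were found by the root mean square distance between log2(RPKM + 0.5) profiles over the 6 libraries, each centred on its own mean, among the 11595 tested genes. For Ppargc1b the nearest were Rasgrp1 (distance 0.194), Rab38 (0.206), Abcg3 (0.216), Rtn4r (0.222) and Nyap2 (0.243). In -R these genes measured 0 to 0.292 RPKM, all below the 0.5 added before the logarithm. Their likeness to Ppargc1b holds on that scale and need not hold for fold changes of RPKM. Rasgrp1 measured 0.074 and 0.056 RPKM in -R, 3.23 and 3.21 RPKM in +R, and 0.779 and 0.936 RPKM in R+LE. For Myc the nearest were Crybg1 (0.0303), Ncapd2 (0.0523), Cep162 (0.0556), Tnfrsf14 (0.0608) and Dctd (0.0642). Crybg1 measured 15.6 and 17.2 RPKM in -R, 31.2 and 31.3 RPKM in +R, and 28.8 and 29.4 RPKM in R+LE.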

How the data were processed

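Libraries from total RNA of BMMs were sequenced in pairs for -R, +R and R+LE. The authors aligned reads to mm10, counted them on gene exons of either strand with HOMER, with 1 transcript for each gene, and deposited RPKM (titled FPKM in the table). The methods of the study name TopHat as aligner, the submitters' processing notes HISAT2. All columns of values were used, and 26 gene symbols turned into dates were restored. The 10 genes and the pathway lists were chosen with earlier results of these data known.

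RPKM was tested as log2(RPKM + 0.5) with limma version 3.58.1 in R version 4.3.3, after a filter at a mean of 0.5 RPKM. One fit to all 6 libraries gave 3 comparisons, with a variance trend, empirical Bayes moderation and Benjamini-Hochberg adjustment over 11595 genes. The threshold was an adjusted p of 0.05. Each group has 2 libraries, for which an exact permutation test cannot go below p = 0.333 (two-sided), so none was used. Multiplying RPKM by transcript length and dividing by the value of 1 read gave back whole reads (all checked values within 0.1 reads of whole), which gave the depth and the limit of 3 reads, for counting error only. At these depths 3 reads on 1 kb correspond to 0.0861 to 0.102 RPKM.

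Named genes are the 10 regulators, up to 3 genes of lowest adjusted p in each pathway list and comparison, low paralogues, and the 5 genes most like Ppargc1b or Myc. Some genes that this rule names are counted with their lists but not reported here by name. Motifs were searched with Python version 3.11.15. The scripts were tested on simulated data. The 17 alternatives changed the pseudocount, the filter, the scaling, the variance trend, the groups fitted, the replicate block, the use of recovered reads with voom, or left out 1 library.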

Additional observations from a re-analysis of the deposited data

How the results depend on the processing

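Ppargc1b and Myc passed in all 17 alternatives in each comparison they passed above. Of 459 values of single regulators under alternatives, 420 kept their direction and side of the threshold, 18 reversed, 9 gained a call and 12 lost one. The number of regulators past the threshold in R+LE against +R was 2 with a replicate block and 2 with voom, with Esrra the added gene (limma adjusted p = 0.0434 and 0.0449), and in R+LE against -R it was 5 with Rn45s left out of the depth, an alternative chosen after seeing the data. When 1 library was left out, the number was 3 to 6 for +R against -R, 1 in every case for R+LE against +R, and 2 to 4 for R+LE against -R.

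Esrra in +R against -R lost its call without the variance trend (adjusted p = 0.0573), and Tfam without the filter (adjusted p = 0.0513). Gabpa in R+LE against -R gained one with median centring, quantile normalization, voom, the replicate block (adjusted p = 0.0423), without Rn45s and without R+LE replicate 2 (adjusted p = 0.0134), and Tfam without Rn45s (adjusted p = 0.0324). No other call of a regulator changed under the block. The replicate numbers were not taken to pair the samples, since differences between replicates did not all go together, with correlations over genes of -0.046, 0.107 and 0.249.

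Reversals were of values near 0. Max in R+LE against +R was 0.0323, 0.0437 and 0.0248 with centring, quantile normalization and without Rn45s, Esrra in R+LE against -R was 0.0060, 0.0293 and 0.0698, and Nrf1 in R+LE against -R was 0.0392 without Rn45s. With 1 library left out, Nrf1 in +R against -R ran from -0.0902 to 0.152. In R+LE against +R, Max ran from -0.138 to 0.101, Pprc1 from -0.0714 to 0.336, Nrf1 from -0.27 to 0.0606 and Tfb2m from -0.20 to 0.0146. In R+LE against -R, Max ran from -0.0202 to 0.218, Esrra from -0.113 to 0.0166, Pprc1 from -0.325 to 0.0815 and Nrf1 from -0.239 to 0.0914. The cause of these changes was not tested. Leaving Rn45s out of the depth shifted the log2 differences of the tested genes in R+LE against -R by a median of 0.114. With 2 libraries in each group, intervals of about 0.3 log2 units on either side limit what could be seen.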
